A study of Homo sapiens with 20 samples.

Results

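The 35 genes described here are nuclear genes for the last steps of oxidative phosphorylation. Of these, 9 are listed under complex III, 11 under complex IV and 15 under ATP synthase. The list does not hold every subunit. The 35 were taken by symbol from 50775 gene rows in 20 count files. All 35 had a row and were among the 16698 genes tested. RNA from 5 human cancer cell lines was sequenced with and without torkinib, also known as PP242, a small molecule that competes with ATP for the kinase mTOR and so blocks both of its complexes. Each line had 2 untreated libraries and 2 libraries from cells given torkinib for 72 h. The dose was 10 µM in 94T778, a well differentiated liposarcoma line, 4 µM in the melanoma lines A375 and SKMEL28 and in the breast cancer line AU565, and 0.8 µM in the breast cancer line SKBR3. The labels describe the doses as chosen to stop the cell cycle while the cells stayed viable, give no time or vehicle for the untreated cells, and do not say that the libraries of a group came from separate cultures. SKBR3 and AU565 are known to come from the same donor, so they are not independent examples of breast cancer. The culture media also differed between lines, and of the 5 only AU565 medium is listed with added sodium pyruvate, at 1 mM.

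Complex III passes electrons from ubiquinol to cytochrome c, complex IV passes them from cytochrome c to oxygen, and both move protons across the inner mitochondrial membrane. ATP synthase lets the protons back through a rotating ring and makes ATP. Most subunits are encoded in the nucleus and imported, while the catalytic cores of complexes III and IV and part of the membrane sector of ATP synthase are encoded by mitochondrial DNA. mTOR complex 1 is known to promote transcription and translation of nuclear genes for mitochondrial proteins, and the transcription factors NRF1, GABP, YY1 and SP1 are known regulators of respiratory genes.

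The libraries held 4040023 to 9737903 counted reads, and the lowest count of any of the 35 genes was 64 (UQCR10, A375 with torkinib, replicate 2). Marker genes on the 12q amplicon of liposarcoma summed to at least 10366 CPM (reads of a gene over all counted reads, on a fixed common scale) in 94T778 libraries and to at most 958 CPM elsewhere, and luminal and HER2 markers to at least 11162 CPM in the breast lines and at most 741 CPM elsewhere. Melanocyte markers summed to at least 7338 CPM in SKMEL28 but only to 28.2 to 44.7 CPM in A375, and adipocyte markers to at most 6.26 CPM in 94T778, so those defining markers were near absent there. With torkinib, summed luminal and HER2 markers went from 23071 and 22115 to 13870 and 13947 CPM in SKBR3 and from 17319 and 17325 to 11162 and 11756 CPM in AU565. Summed endothelial markers went from 33.1 and 34.9 to 152 and 161 CPM in SKBR3, through CDH5 while VWF stayed at or under 2.02 CPM, and from 33.6 and 33.4 to 78.9 and 82.1 CPM in AU565. Summed melanocyte markers went from 7678 and 7338 to 11077 and 10879 CPM in SKMEL28. The nuclear RNA NEAT1 went from 1129 and 827 to 3248 and 3173 CPM in AU565 and from 328 and 462 to 1295 and 1203 CPM in 94T778, where MALAT1 went from 146 and 194 to 454 and 419 CPM. The part of these in the results was not tested. The pair of untreated SKBR3 libraries stood apart: mitochondrially encoded genes took 7.63% of counts in replicate 1 and 4.44% in replicate 2, so results in SKBR3 were also computed without each of them. In bulk RNA, fewer cells of a kind and less RNA per cell cannot be told apart, and CPM is a share of the counted RNA, so total RNA per cell was not measured.

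The promoters of the 35 genes were read from RefSeq (GRCh38.p14; the counts themselves were made on hg19, and no coordinate was carried between the builds). Windows of 250 bases before to 50 bases after the transcript start were found for 28 of the genes, 34 windows in all, and none was used for UQCRB, CYC1, COX6C, ATP5B, ATP5D, ATP5G3 and ATP5J2. On both strands, the NRF1 motif CGCANGCG was in 10 of the 34 windows (29.4%), against 15.5% of 16691 windows of genes tested here and 10.0% of all 35116 windows. The ETS motif bound by GABP, CCGGAAG, was in 14 (41.2%), against 15.4% and 10.3%. The YY1 motif AAGATGGCG was in 3 (8.82%, against 3.09% and 1.75%), and the SP and KLF motif GGGCGG was in 20 (58.8%, against 63.9% and 45.0%). Some genes have more than 1 window. The 14 ETS windows belong to 13 genes, the 3 YY1 windows to only 2 and the 20 SP and KLF windows to 18. The cAMP response element TGACGTCA was in 2 windows (5.88%, against 2.57% and 1.85%) and the E-box CACGTG in 4 (11.8%, against 9.06% and 7.26%). Of 39 windows of nuclear complex I genes, 13 held the NRF1 motif, 5 the ETS motif and 6 the YY1 motif. The SP and KLF motif was in 26 of those 39, the cAMP response element in 2 and the E-box in 3. NRF1 and YY1 matches were thus not particular to the 35 genes. A match describes the letters of a window and is neither a bound site nor a cause. Among genes with a single window, UQCR10, COX7B and ATP5G1 had the most negative average change with torkinib of their complex. They were also among the 5 most negative in each breast line. COX7C had the average change nearest to none of such genes and moved little in the breast lines. UQCR11 was picked because its window held as many kinds of motif as any single window, and not for its response. Its change was near the median of the 35 genes in the breast lines. The windows of these 5 genes are printed here. They lie at chr22:29767119-29767388 (plus strand), chr19:1605443-1605712 (minus), chrX:77899218-77899487 (plus), chr5:86617691-86617960 (plus) and chr17:48892537-48892806 (plus), in the order UQCR10, UQCR11, COX7B, COX7C, ATP5G1. Each is shown 5′ to 3′ from 250 bases before to 20 bases after the start, with motif matches in capitals.
UQCR10: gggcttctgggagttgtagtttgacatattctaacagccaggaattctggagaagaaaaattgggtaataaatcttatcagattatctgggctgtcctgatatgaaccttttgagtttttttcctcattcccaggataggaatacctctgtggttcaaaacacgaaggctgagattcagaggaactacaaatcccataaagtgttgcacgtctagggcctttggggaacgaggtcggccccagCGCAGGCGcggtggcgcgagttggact
UQCR11: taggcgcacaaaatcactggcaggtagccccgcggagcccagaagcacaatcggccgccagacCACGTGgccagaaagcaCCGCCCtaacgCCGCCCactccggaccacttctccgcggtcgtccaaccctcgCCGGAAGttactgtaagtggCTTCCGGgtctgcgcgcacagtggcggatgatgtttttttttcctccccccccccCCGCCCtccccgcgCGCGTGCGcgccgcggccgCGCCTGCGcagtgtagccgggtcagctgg
COX7B: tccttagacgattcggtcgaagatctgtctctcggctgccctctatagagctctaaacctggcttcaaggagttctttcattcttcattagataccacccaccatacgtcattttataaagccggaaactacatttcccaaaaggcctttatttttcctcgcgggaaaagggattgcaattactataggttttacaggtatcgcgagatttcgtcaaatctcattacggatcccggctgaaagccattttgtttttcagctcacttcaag
COX7C: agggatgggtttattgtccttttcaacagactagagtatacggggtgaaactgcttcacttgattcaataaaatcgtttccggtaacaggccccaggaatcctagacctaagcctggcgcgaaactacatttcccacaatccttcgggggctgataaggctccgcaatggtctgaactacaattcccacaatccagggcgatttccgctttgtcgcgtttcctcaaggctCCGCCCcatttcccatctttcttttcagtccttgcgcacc
ATP5G1: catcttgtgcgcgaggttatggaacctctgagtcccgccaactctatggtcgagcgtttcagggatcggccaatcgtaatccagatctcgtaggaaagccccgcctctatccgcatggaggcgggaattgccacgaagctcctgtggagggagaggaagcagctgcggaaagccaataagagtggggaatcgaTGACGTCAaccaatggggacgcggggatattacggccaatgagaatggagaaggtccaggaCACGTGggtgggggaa
The UQCR10 window held 1 NRF1 match and the UQCR11 window 4 kinds of motif, among them 2 NRF1 and 2 ETS matches. The ATP5G1 window held the cAMP response element and an E-box. The COX7B window held no match, and that of COX7C held only an SP and KLF match.

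RNA of most of the 35 genes was lower with torkinib in 4 of the 5 lines, with the most negative changes in the breast lines, and few passed the test in A375. A gene is called lower or higher where edgeR's quasi-likelihood test gave an adjusted p under 0.05, with the adjustment over all 16698 genes, and changes are log2 ratios of torkinib over untreated. In SKBR3, 34 of the 35 were lower (97.1%, against 26.7% of all genes tested) and only COX7A2L was higher (24.6% of all genes). In AU565, 32 were lower (91.4%, against 28.6%), COX7A2L and ATP5G2 were higher (26.9% of all genes), and COX7C was not called. In 94T778, 28 were lower (80.0%, against 23.8%) and 0 higher (23.8% of all genes). In SKMEL28, 21 were lower (60%, against 23.7%) and 6 higher (17.1%, against 20.4%). In A375, 8 were lower (22.9%, against 24.3%) and 4 higher (11.4%, against 18.5%), so the share lower was near that of all genes. That split in A375 turned to 5 lower and 7 higher with plain library totals, and again to 5 and 7 with a filter of 5 CPM in 4 libraries. On the average of the 5 lines, 31 were lower (88.6%, against 28.1%) and 0 higher (28.4% of all genes). The median change of the 35 genes was -1.10 in SKBR3, -1.13 in AU565, -0.47 in 94T778, -0.28 in SKMEL28 and -0.07 in A375, while the median over all genes tested was -0.02 in A375 and 0.00 in each other line.

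**Figure D1:**
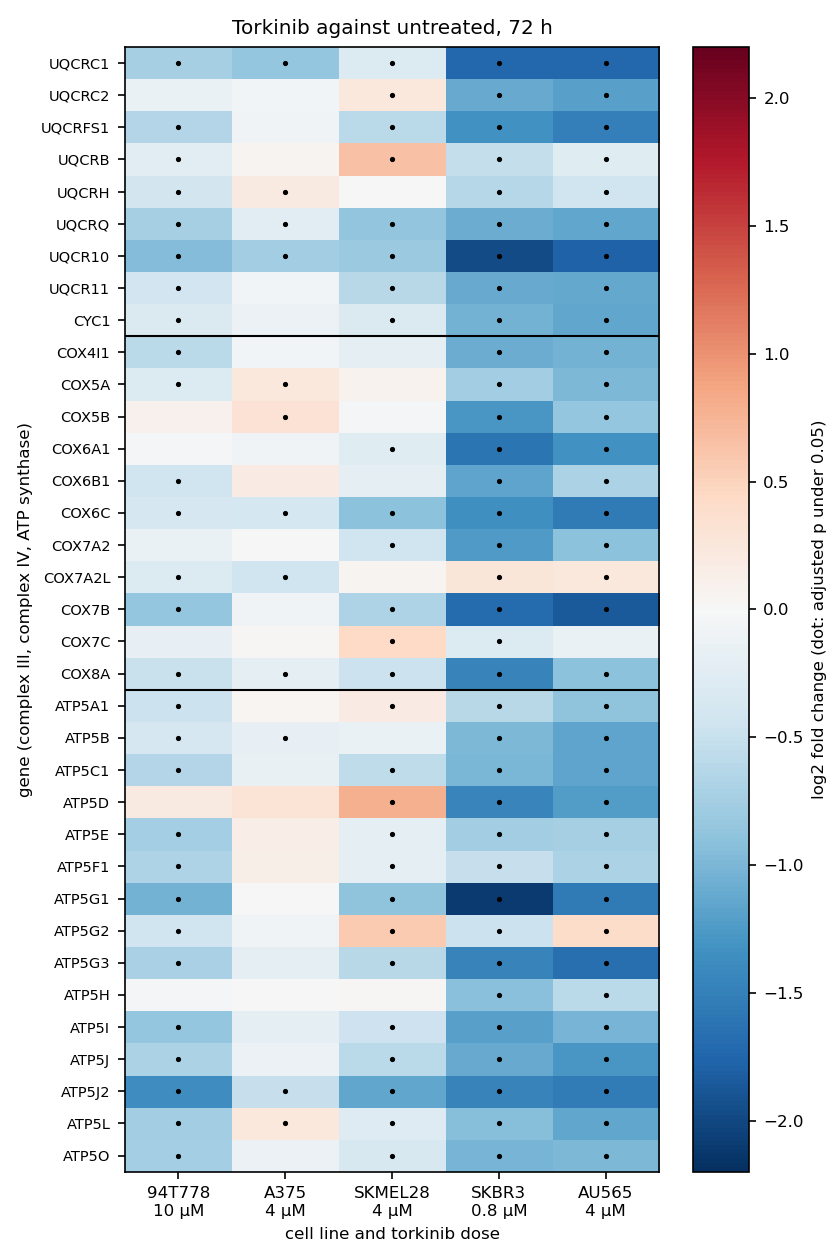
Log2 fold change (torkinib over untreated, colour) of the 35 genes (rows, by complex) in the 5 cell lines (columns, with the dose); a dot marks an adjusted p under 0.05 by edgeR. The SKBR3 and AU565 columns are blue for nearly every gene, with COX7A2L as the exception in both, and the A375 column is pale apart from UQCRC1 and UQCR10.

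Together the 35 genes took 0.927% and 0.955% of counted reads in the untreated SKBR3 libraries and 0.476% and 0.459% with torkinib. The same share was 0.828% and 0.870% in untreated AU565 and 0.425% and 0.431% with torkinib. In both breast lines the untreated libraries thus lay well above the treated ones, with no overlap. The share went from 0.455% and 0.436% to 0.355% and 0.339% in 94T778, and from 0.511% and 0.495% to 0.443% and 0.443% in SKMEL28. In A375 it was 0.561% and 0.550% untreated and 0.564% and 0.550% with torkinib, and the groups overlapped. Untreated, 26 of the 35 genes were highest in SKBR3 and 4 in AU565. The median ratio between the highest and the lowest line was 3.18 without and 2.28 with torkinib, and it was smaller with torkinib for 26 of the 35 genes. Neither these ratios nor the order of the untreated lines was computed over all genes tested. They are thus not shown to be particular to the 35.

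**Figure D2:**
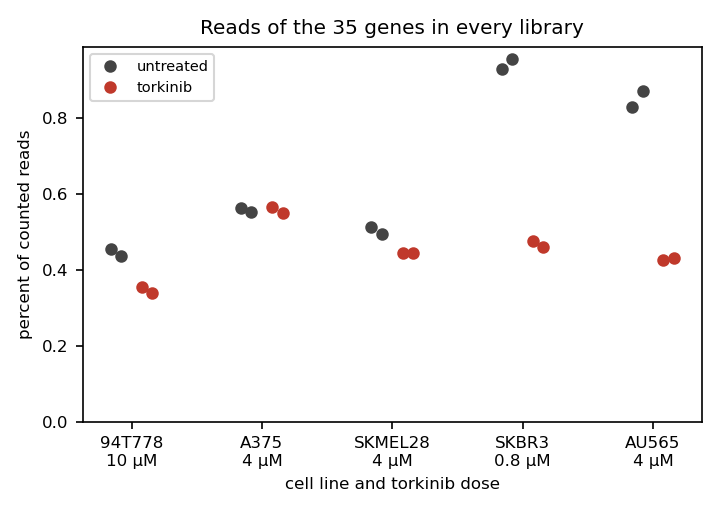
Share of counted reads (percent) taken by the 35 genes in each of the 20 libraries, untreated (grey) and with torkinib (red), by cell line and dose. The untreated breast libraries sit between 0.828% and 0.955% and the treated ones between 0.425% and 0.476%, near the other lines, while the A375 libraries overlap.

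Among the 9 genes of complex III, 9 were lower in SKBR3, 9 in AU565, 8 in 94T778, 6 in SKMEL28 and 3 in A375. Of these, 0 were higher in SKBR3, AU565 and 94T778, 2 in SKMEL28 and 1 in A375. The median changes were -1.10, -1.15, -0.42, -0.31 and -0.07 in the same order. In A375, 33.3% of the 9 were thus lower, against 24.3% of all genes tested. In each other line 66.7% or more were lower, against at most 28.6% of all genes. The share higher was 22.2% in SKMEL28 (20.4% of all genes) and 11.1% in A375 (18.5% of all genes). UQCRC1, UQCRQ and UQCR10 were lower in all 5 lines.

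UQCR10, a small accessory subunit, had the most negative average change of the 35 genes. It stood at 168 and 159 CPM in untreated SKBR3 and at 44.7 and 39.6 CPM with torkinib. In AU565 it went from 141 and 153 to 40.9 and 44.5 CPM. In A375, where it was lowest untreated, it went from 24.1 and 27.3 to 16.3 and 13.5 CPM. The groups did not overlap in these lines, nor in 94T778 (73.0 and 63.4 against 35.4 and 35.3 CPM) or SKMEL28 (63.5 and 71.6 against 35.3 and 42.1 CPM). The changes were -1.96 (SE 0.10) in SKBR3, -1.77 (SE 0.10) in AU565 and -0.77 (SE 0.15, edgeR adjusted p = 4.68e-05) in A375.

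UQCRC1, one of the large core proteins that face the matrix, changed in every line as well. It was 336 and 336 CPM in untreated SKBR3 against 103 and 99.6 CPM with torkinib, and 260 and 264 against 75.5 and 81.9 CPM in AU565. It was 145 and 143 against 86.5 and 72.1 CPM in A375 and 146 and 130 against 85.7 and 81.7 CPM in 94T778. In SKMEL28 the values were 173 and 161 against 136 and 134 CPM. The groups stayed apart in each line, with changes from -1.73 (SE 0.08) in SKBR3 to -0.30 (SE 0.08, edgeR adjusted p = 0.00212) in SKMEL28. UQCRC1 had the most negative change of the 35 genes in A375 (-0.85, SE 0.09).

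Its partner core protein is UQCRC2. UQCRC2 fell by 1.12 in SKBR3 and by 1.19 in AU565, on the log2 scale, and rose by 0.23 (edgeR adjusted p = 0.0122) in SKMEL28. Its changes of -0.15 in 94T778 and -0.06 in A375 did not pass the test. The electron carriers of the complex, the Rieske iron-sulfur protein UQCRFS1 and cytochrome c1 (CYC1), were lower in 4 lines each. UQCRFS1 ran from 207 and 213 to 77.5 and 89.5 CPM in SKBR3 and from 167 and 177 to 61.4 and 60.4 CPM in AU565. In A375 its values of 63.7 and 61.4 against 59.1 and 60.1 CPM were close together, with a change of -0.07 (edgeR adjusted p = 0.582).

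The remaining small subunits differed among themselves. UQCRQ and UQCR11 fell by 1.09 and 1.10 in SKBR3, and UQCRQ by 0.87 in SKMEL28. UQCRB, which lies next to the ubiquinone site, rose in SKMEL28 from 129 and 144 to 209 and 217 CPM, a change of 0.64 (SE 0.08, edgeR adjusted p = 4.65e-08). It was lower in SKBR3 (-0.53), AU565 (-0.26) and 94T778 (-0.25). UQCRH, the acidic hinge protein beside cytochrome c1, was higher in A375 (0.20, edgeR adjusted p = 0.0254), lower in the breast lines and 94T778, and at 0.00 in SKMEL28. UQCRB, with -0.07 (edgeR adjusted p = 0.173), was the only complex III gene not called on the average of the lines.

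Among the 11 genes of complex IV, 10 were lower and 1 higher in SKBR3, 9 and 1 in AU565, 7 and 0 in 94T778, 5 and 1 in SKMEL28 and 3 and 2 in A375. The median changes were -1.24, -0.90, -0.30, -0.20 and -0.06 in that order. In A375, 27.3% of the 11 were thus lower, near the 24.3% of all genes tested. In each other line 45.5% or more were lower, against at most 28.6% of all genes. The share higher was 18.2% in A375, near the 18.5% of all genes. It was at most 9.09% in each other line, against at least 20.4% of all genes. COX6C and COX8A, small subunits that span the membrane, were lower in all 5 lines, COX8A in A375 only just (-0.20, edgeR adjusted p = 0.0491).

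COX7B, a small membrane subunit, had the most negative change of complex IV in SKBR3, AU565 and 94T778, but not in SKMEL28 (COX6C, -0.90) or A375 (COX7A2L, -0.44). It was 439 and 423 CPM in untreated SKBR3 and 152 and 116 CPM with torkinib. It was 383 and 409 against 110 and 109 CPM in AU565, and 108 and 96.0 against 59.5 and 53.3 CPM in 94T778. In SKMEL28 it was 99.5 and 98.0 against 59.8 and 63.3 CPM, and in A375 77.8 and 72.5 against 75.3 and 66.4 CPM. Only the A375 groups overlapped. The changes were -1.85 (SE 0.09) in AU565, -1.69 in SKBR3, -0.85 in 94T778, -0.68 in SKMEL28 and -0.08 (edgeR adjusted p = 0.588) in A375.

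COX7C, another small membrane subunit, changed far less. It was 303 and 304 CPM in untreated SKBR3 against 265 and 228 CPM, and 269 and 288 against 250 and 255 CPM in AU565. The changes were -0.30 (edgeR adjusted p = 0.00152) and -0.14 (edgeR adjusted p = 0.135). In SKMEL28 it rose from 142 and 145 to 188 and 201 CPM (0.43, SE 0.08). In 94T778 (129 and 115 against 110 and 105 CPM) and A375 (190 and 177 against 193 and 180 CPM) it was not called. COX7C has processed copies in the genome, and its row COX7CP1, with 1.6% of the counts of COX7C, is among the larger pseudogene rows. Adding those rows changed none of the calls, but reads aligned at more than 1 place are in no gene row. That check therefore cannot show what such reads would change.

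COX7A2L is kin to the COX7A subunits and is known for linking complexes III and IV into supercomplexes rather than as a standard subunit. It was the 1 gene higher in both breast lines: 99.8 and 93.9 against 115 and 116 CPM in SKBR3, and 98.3 and 99.5 against 122 and 111.6 CPM in AU565. The changes were 0.26 (SE 0.09, edgeR adjusted p = 0.0116) and 0.24 (SE 0.08, edgeR adjusted p = 0.0156). In A375 it fell from 78.9 and 80.7 to 58.8 and 59.2 CPM (-0.44) and in 94T778 from 82.9 and 71.6 to 65.6 and 60.1 CPM (-0.30). The SKMEL28 values of 149 and 134 against 150 and 143 CPM overlapped. COX7A2L was thus higher in the lines where nearly all the other genes were lower. The SKBR3 call was lost with SKBR3 fitted alone, without untreated replicate 2 and without torkinib replicate 2. The AU565 call was lost with no filter on low counts and without untreated replicate 1, untreated replicate 2 or torkinib replicate 1, with values of 0.17 to 0.24.

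**Figure D3:**
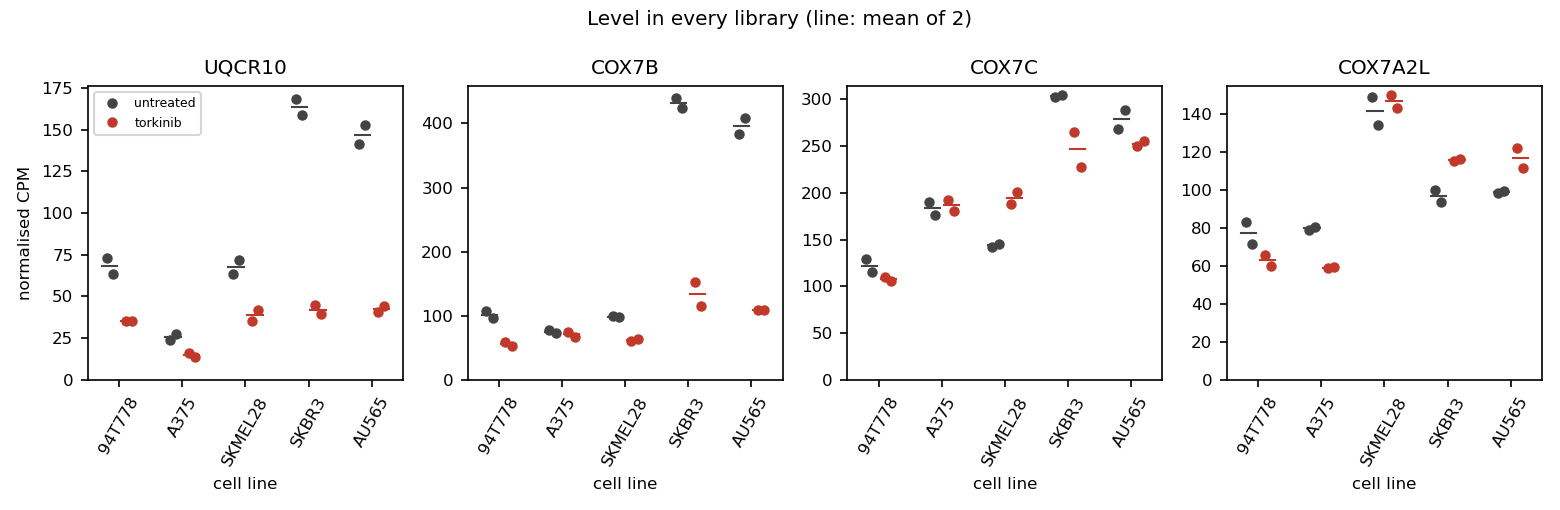
Normalised CPM (vertical axis, from 0) of UQCR10, COX7B, COX7C and COX7A2L in each library of the 5 lines, untreated (grey) and with torkinib (red); each line is the mean of 2 libraries. In the breast lines UQCR10 drops from at least 141 to at most 44.7 CPM and COX7B from at least 383 to at most 152 CPM, COX7C stays at 228 CPM or more there, and COX7A2L rises in SKBR3 and AU565 and falls in 94T778 and A375.

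COX7A2, the widely expressed relative that sits in the complex itself, fell by 1.24 in SKBR3, by 0.90 in AU565 and by 0.44 in SKMEL28. COX4I1, the subunit that binds regulatory nucleotides, went from 427 and 385 to 209 and 174 CPM in SKBR3 and from 189 and 202 to 91.5 and 98.0 CPM in AU565. It was also lower in 94T778 (-0.60), and not called in A375 (-0.06) or SKMEL28 (-0.19). COX6A1, a subunit of the dimer interface, fell by 1.605 in SKBR3 and by 1.34 in AU565, and by 0.27 in SKMEL28, with -0.02 in 94T778 and -0.08 in A375. The matrix-side subunits COX5A and COX5B were higher in A375, by 0.24 (edgeR adjusted p = 0.0234) and 0.31 (edgeR adjusted p = 0.00699), and lower in both breast lines. COX5B, which binds zinc, went from 55.3 and 57.3 to 69.6 and 70.2 CPM in A375 and from 261 and 240 to 106 and 101 CPM in SKBR3. COX6B1, on the side where cytochrome c docks, was lower in SKBR3 (-1.16), AU565 (-0.69) and 94T778 (-0.44).

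Among the 15 genes of ATP synthase, 15 were lower in SKBR3, 14 in AU565, 13 in 94T778, 10 in SKMEL28 and 2 in A375. The higher calls were 0, 1, 0, 3 and 1 in the same order, and the median changes were -1.01, -1.14, -0.69, -0.28 and -0.09. The 94T778 median was thus lower for ATP synthase than for complex III (-0.42) and complex IV (-0.30), a comparison given without a test. In A375, 13.3% of the 15 genes were lower, against 24.3% of all genes tested. In each other line 66.7% or more were lower, against at most 28.6% of all genes. The share higher was 6.67% in A375, against 18.5% of all genes. In SKMEL28 the share higher was near the 20.4% of all genes. It was at most 6.67% in SKBR3, AU565 and 94T778, against at least 23.8% of all genes.

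In the catalytic head, ATP5B, the beta subunit that carries the catalytic sites, went from 1894 and 1953 to 848 and 874 CPM in AU565. In SKBR3 it went from 1476 and 1655 to 772 and 809 CPM, and in 94T778 from 509 and 499 to 394 and 391 CPM. The changes were -1.16 (SE 0.07), -0.99 (SE 0.07) and -0.36 (SE 0.07), and in A375 -0.18 (edgeR adjusted p = 0.0344). Its alpha partner ATP5A1 was lower in the breast lines and 94T778 and higher in SKMEL28 (0.18, edgeR adjusted p = 0.0394).

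Of the central stalk that turns inside the head, the gamma subunit ATP5C1 was lower in 4 lines, from -1.17 in AU565 to -0.55 in SKMEL28, and not called in A375 (-0.15). The delta subunit ATP5D had the widest range over the lines. It was 94.9 and 92.7 CPM in untreated SKBR3 against 30.6 and 37.0 CPM, and 59.99 and 69.7 against 24.9 and 29.6 CPM in AU565. In SKMEL28 it was 24.4 and 20.5 against 37.5 and 39.3 CPM. The changes were -1.46 (SE 0.11), -1.23 (SE 0.12) and 0.79 (SE 0.13, edgeR adjusted p = 3.85e-06). In 94T778 (23.1 and 20.7 against 25.7 and 24.7 CPM) and A375 (22.3 and 27.8 against 33.4 and 28.0 CPM) the higher treated values did not pass the test. With torkinib the means of ATP5D over the lines spanned a ratio of 1.52, against 4.29 untreated. The epsilon subunit ATP5E changed by -0.76 in SKBR3, -0.73 in AU565 and -0.76 in 94T778, so its change in the liposarcoma line was of the same size as in the breast lines.

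The peripheral stalk holds the head still against the rotor. Its genes ATP5J (subunit F6) and ATP5O (the subunit that confers oligomycin sensitivity) were lower in 4 lines each, from -1.28 in AU565 to -0.59 in SKMEL28 for ATP5J and from -1.02 in SKBR3 to -0.36 in SKMEL28 for ATP5O. ATP5F1, subunit b, fell by 0.68 in 94T778, by 0.70 in AU565 and by 0.51 in SKBR3. ATP5H, subunit d, was called lower in SKBR3 (-0.92) and AU565 (-0.59) and not in the other lines. Its values in 94T778, 309 and 289 against 310 and 277 CPM, overlapped. Each was higher than any value of another line with the same treatment.

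ATP5J2, ATP5I and ATP5L encode subunits f, e and g, which sit in the membrane and take part in pairing ATP synthase into dimers. ATP5J2 was lower in all 5 lines. It went from 342 and 314 to 132 and 106 CPM in SKBR3, from 201 and 195 to 67.1 and 69.0 CPM in AU565, and from 47.5 and 43.9 to 18.96 and 16.4 CPM in 94T778. In SKMEL28 it went from 98.5 and 91.2 to 38.3 and 47.4 CPM and in A375 from 69.9 and 70.7 to 48.6 and 49.96 CPM. No groups overlapped, and the changes ran from -1.54 (SE 0.10) in AU565 to -0.51 (SE 0.11, edgeR adjusted p = 0.000159) in A375. ATP5J2 is also part of a known readthrough transcript with PTCD1, and how such reads were assigned is not given in the sources used here. ATP5I was lower in 4 lines and not called in A375 (-0.20), and ATP5L was lower in 4 lines and higher in A375 (0.23, edgeR adjusted p = 0.0215).

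Subunit c, which forms the rotating ring, is made from 3 genes, ATP5G1, ATP5G2 and ATP5G3, that encode the same mature protein behind different import peptides. ATP5G1 was 88.1 and 89.3 CPM in untreated SKBR3 against 20.7 and 20.7 CPM, the most negative change of any of the 35 genes in any line (-2.10, SE 0.12). It was 69.5 and 66.0 against 25.1 and 21.2 CPM in AU565 (-1.56), 93.0 and 83.9 against 37.5 and 48.0 CPM in 94T778 (-1.05), and 91.9 and 83.9 against 44.1 and 50.4 CPM in SKMEL28 (-0.89). In A375 the values of 35.9 and 40.8 against 41.3 and 35.6 CPM overlapped (0.01). ATP5G3 was 308 and 322 against 120 and 106 CPM in SKBR3 (-1.48), 269 and 287 against 89.8 and 86.0 CPM in AU565 (-1.66), and 289 and 292 against 197 and 182 CPM in SKMEL28 (-0.62). It was 132 and 122 against 76.7 and 79.3 CPM in 94T778 (-0.71), and in A375, with 87.3 and 87.4 against 81.4 and 69.6 CPM, it did not pass the test (-0.20, edgeR adjusted p = 0.0717).

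ATP5G2 differed from both. It rose in AU565 from 126 and 128 to 165 and 172 CPM (0.41, SE 0.08, edgeR adjusted p = 4.42e-05) and in SKMEL28 from 105 and 100 to 152 and 153 CPM (0.58, SE 0.08). It fell in SKBR3 from 197 and 178 to 143 and 128 CPM (-0.47) and in 94T778 from 105 and 119 to 85.9 and 79.6 CPM (-0.44). Of the reads on the 3 genes, ATP5G2 took 27.1% and 26.6% in untreated AU565 and 59.0% and 61.6% with torkinib. In SKBR3 the share went from 33.2% and 30.2% to 50.3% and 50.1%, in SKMEL28 from 21.6% and 21.0% to 38.7% and 39.7%, in 94T778 from 31.8% and 36.6% to 42.9% and 38.5%, and in A375 from 59.9% and 60.2% to 59.8% and 62.3%. The A375 groups overlapped and the others did not. These shares compare counts of transcripts of unequal length within a library, so only their change is read.

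The log2 ratio of ATP5G2 over ATP5G3 rose by 0.93 on the mean of the lines, with differences of 2.07 in AU565, 1.19 in SKMEL28, 1.00 in SKBR3, 0.27 in 94T778 and 0.13 in A375. It was higher in 5 of 5 lines (exact permutation test within lines, two-sided, p = 0.000257, the smallest that 7776 relabellings allow for it; adjusted over the 3 ratios, 0.000772). The ratio of ATP5G1 over ATP5G2 changed by -1.12 with 4 of 5 lines lower (p = 0.00129 by the exact permutation test, adjusted 0.00193). The ratio of ATP5G1 over ATP5G3 changed by -0.18, with 3 of 5 lines lower, and did not pass (p = 0.0818 by the exact permutation test, adjusted 0.0818).

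**Figure D4:**
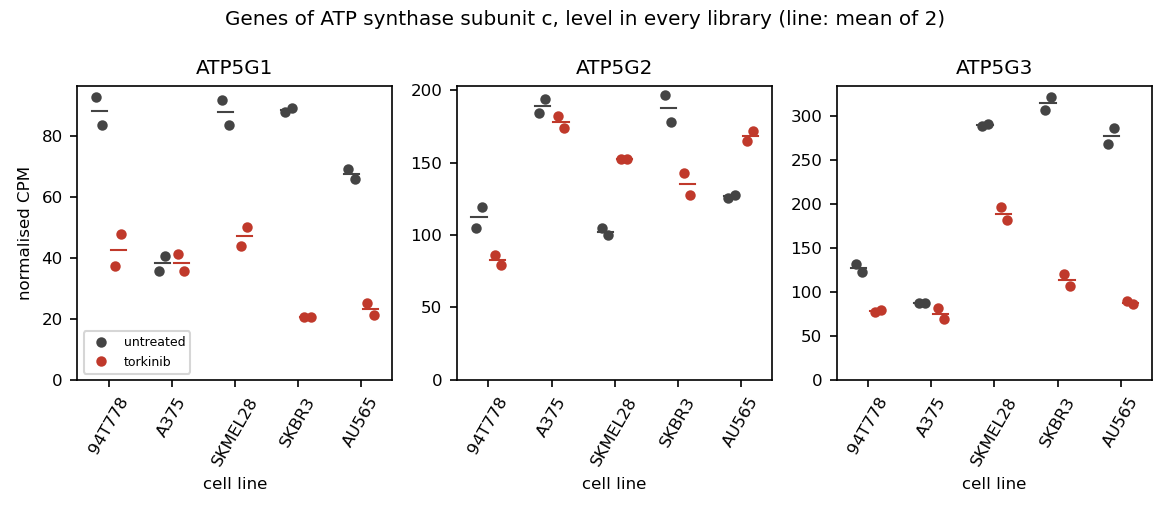
Normalised CPM (vertical axes, each from 0) of the 3 genes of ATP synthase subunit c in each library, untreated (grey) and with torkinib (red). ATP5G1 and ATP5G3 are clearly lower with torkinib in 94T778, SKMEL28, SKBR3 and AU565, while ATP5G2 is higher in SKMEL28 and AU565 and lower in 94T778 and SKBR3.

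All 35 genes differed between the lines in their response (edgeR F test, against 68.4% of all genes tested), and 30 of 35 (85.7%) had both breast lines below the other 3, a pattern held by 3386 of 16698 genes (20.3%). Dose differs between lines, so line and dose cannot be told apart in that test. At the shared dose of 4 µM, the change in AU565 differed from that in A375 for 34 of the 35 genes (97.1%, against 38% of all genes), 32 of them more negative in AU565 and COX7A2L and ATP5G2 more positive. COX7C was the exception (-0.17, SE 0.11, edgeR adjusted p = 0.274). AU565 differed from SKMEL28 for 32 genes (91.4%, against 34.8%), all 32 more negative in AU565, and the difference was largest for ATP5D (-2.02, SE 0.18). The melanoma lines differed for 23 genes (65.7%, against 28.4%), with 16 more negative and 7 more positive in SKMEL28, and for 15 without SKMEL28 torkinib replicate 2. ATP5G1 was the most negative of these (-0.91) and ATP5G2 the most positive (0.66). Line and culture medium cannot be told apart in these comparisons, and each line's untreated libraries enter more than 1 of them.

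Between SKBR3 at 0.8 µM and AU565 at 4 µM the change differed for 5 of 35 genes (14.3%, against 23.8% of all genes). All 5 were less negative or more positive in AU565. The differences were 0.88 (SE 0.12) for ATP5G2, 0.56 (SE 0.12) for COX8A, 0.54 (SE 0.18) for ATP5G1, 0.46 (SE 0.12) for COX6B1 and 0.43 (SE 0.12) for COX5B. None belonged to complex III. The count rose to 10 without SKBR3 untreated replicate 2 and fell to 3 without SKBR3 torkinib replicate 2.

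Across the lines, 6 of the 35 genes were lower in all 5 (UQCRC1, UQCRQ, UQCR10, COX6C, COX8A and ATP5J2), against 4.62% of all genes tested, and 0 were higher in all 5 (2.26% of all genes). In A375 the calls of UQCRQ (edgeR adjusted p = 0.0288) and COX8A (edgeR adjusted p = 0.0491) were lost with plain library totals, with the filter of 5 CPM in 4 libraries and with DESeq2. The call of COX6C in A375 was lost without A375 torkinib replicate 2 (edgeR adjusted p = 0.0526), so the list was shorter under those settings. Another 11 were lower in at least 1 line and higher in at least 1 other, against 24% of all genes: UQCRC2, UQCRB, UQCRH, COX5A, COX5B, COX7A2L, COX7C, ATP5A1, ATP5D, ATP5G2 and ATP5L. The 4 genes not called on the average of the lines, UQCRB, COX7A2L, COX7C and ATP5G2, are all among these 11. A375 had the highest change of the 5 lines for 23 of the 35 genes, and SKMEL28 for 9. Neither count was made over all genes tested, so neither is shown to be particular to the 35.

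The partner subunits encoded by mitochondrial DNA changed in line-dependent directions. Cytochrome b (MT-CYB), the complex IV core genes MT-CO1, MT-CO2 and MT-CO3, and MT-ATP6 were tested, and MT-ATP8 had too few counts. In AU565, MT-CO1, MT-CO2 and MT-CO3 were higher (0.83, 0.50 and 0.46), in SKMEL28 MT-CYB and MT-CO1 (0.51 and 0.46), and in SKBR3 MT-CO1 and MT-CO2 (0.62 and 0.48). In A375, MT-CYB, MT-CO3 and MT-ATP6 were lower (-0.47, -0.35 and -1.09), and in 94T778 0 of the 5 were called. The share higher was thus 60% in AU565 (26.9% of all genes tested), 40% in SKMEL28 (20.4%) and 40% in SKBR3 (24.6%). The share lower in A375 was 60% (24.3% of all genes). In 94T778, 23.8% of all genes were lower and 23.8% higher. With only 5 genes these shares are coarse. MT-CO1 stood at 10561 and 9785 CPM in untreated AU565 and at 18401 and 17757 CPM with torkinib. MT-ATP6 stood at 2854 and 3210 CPM in untreated A375 and at 1533 and 1323 CPM with torkinib. In SKBR3 these results rest on the pair of libraries that stood apart: MT-CO1 was 17907 and 9793 CPM in the untreated libraries and 23303 and 19328 CPM in the treated. Without untreated replicate 1, all 5 were higher in SKBR3, and without untreated replicate 2, 2 were lower (MT-ATP6 and MT-CYB) and 1 higher (MT-CO1). Leaving out either also narrowed the shared spread, so that 4 of the 5 were called lower and 1 higher in 94T778, 4 higher in SKMEL28, and 1 lower and 3 higher in AU565. With the mitochondrially encoded rows left out of the table, 209 of 210 calls for the 35 nuclear genes (6 comparisons each) kept their side of the threshold.

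**Figure D5:**
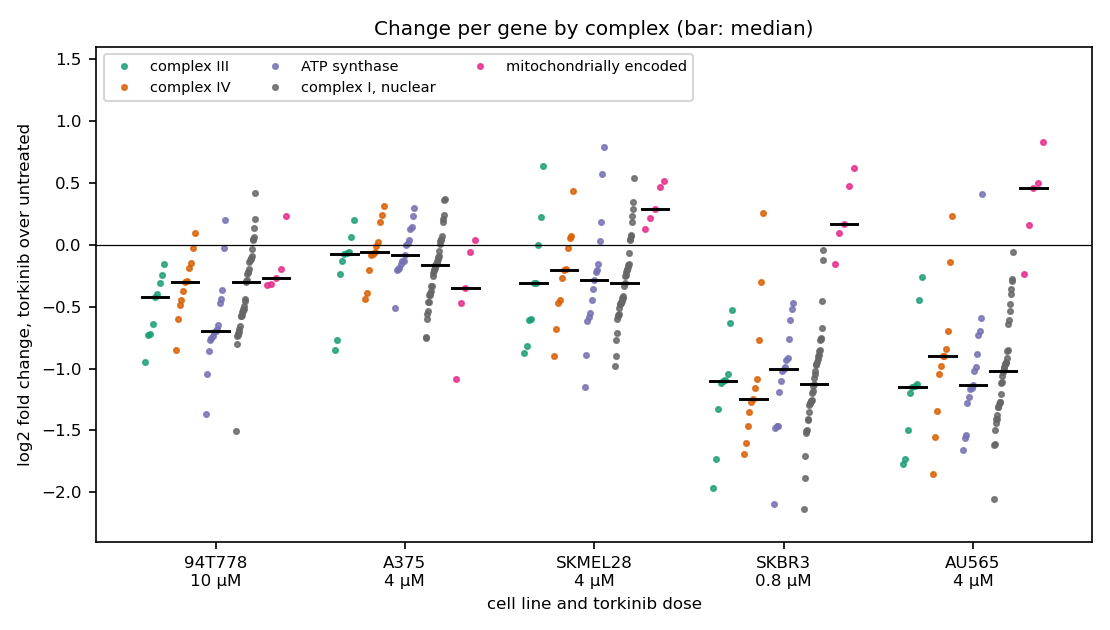
Log2 fold change (torkinib over untreated) of each gene, by cell line and dose, for complex III, complex IV, ATP synthase, the nuclear subunits of complex I and the mitochondrially encoded partners; black bars are medians. In SKBR3 and AU565 the 4 nuclear groups have medians from -0.90 to -1.24 while the mitochondrially encoded genes have medians of 0.17 and 0.46.

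Of 37 nuclear subunits of complex I, the entry point for electrons from NADH, 35 were lower in SKBR3 (94.6%, against 26.7% of all genes) and 34 in AU565 (91.9%, against 28.6%), with 0 higher in either. In 94T778, 20 were lower (54.1%, against 23.8%) and 1 higher (2.7%, against 23.8%). In SKMEL28, 17 were lower (45.9%, against 23.7%) and 4 higher (10.8%, against 20.4%). In A375, 12 were lower (32.4%, against 24.3%) and 2 higher (5.41%, against 18.5%). In that order the lines had medians of -1.13, -1.02, -0.30, -0.31 and -0.17. The smallest adjusted p on the average of the lines were those of NDUFS6 (-1.24), NDUFA9 (-0.91), NDUFS1 (-0.79) and NDUFC2 (-0.92). The 4 genes of complex II, which feeds electrons from succinate, were lower on the average (28.1% of all genes), with SDHB at -0.83 and SDHD at -0.25.

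Among assembly factors, 3 of 7 for complex III were lower (42.9%) and 1 higher (14.3%) on the average, where 28.1% of all genes were lower and 28.4% higher, and C6orf125 (now UQCC2), which helps make cytochrome b, was lower in all 5 lines (-1.23, SE 0.07). UQCC (-0.29) and HCCS (-0.16), which attaches haem to cytochromes, were lower and TTC19 (0.19) higher. Of 24 tested for complex IV, 17 were lower (70.8%) and 4 higher (16.7%), and C16orf61 (now CMC2) was lower in all 5 lines (-1.30, SE 0.06). HIGD1A (-0.63), the translational activator TACO1 (-0.64) and the copper chaperone COX17 (-0.64) were lower. Of 6 for ATP synthase, 5 were lower (83.3%) and 1 higher (16.7%), and ATPIF1, the inhibitor protein that stops the enzyme from running backwards, was lower in all 5 lines (-0.67, SE 0.05). TMEM70 (-0.39), ATPAF2 (-0.49) and C7orf55 (-0.42) were lower too.

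The carriers around ATP synthase split. SLC25A5 and SLC25A6 both exchange ATP for ADP across the inner membrane. SLC25A5 went from 577 and 673 to 273 and 279 CPM in SKBR3, from 664 and 684 to 326 and 309 CPM in AU565, and from 570 and 566 to 269 and 269 CPM in SKMEL28. SLC25A6 went from 867 and 846 to 1198 and 1188 CPM in SKBR3, from 623 and 618 to 1058 and 1135 CPM in AU565, and from 256 and 230 to 774 and 768 CPM in SKMEL28. SLC25A5 was lower in 4 lines, with -0.03 (edgeR adjusted p = 0.804) in A375, and SLC25A6 was higher in all 5, from 0.48 in SKBR3 to 1.67 in SKMEL28. SLC25A4, which makes the same exchange, was lower in at least 1 line and higher in at least 1 other. Cytochrome c itself (CYCS) was lower in 4 lines, by 1.42 in AU565 on the log2 scale, and USMG5, a small ATP synthase subunit outside the 35, was lower in 4 lines (-0.78 on the average). Of the 9 genes of this list, 6 were lower on the average (66.7%, against 28.1% of all genes) and 2 higher (22.2%, against 28.4%).

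Of 10 known regulators, 3 were lower on the average (30%, against 28.1% of all genes), GABPB1 (-0.56), PPARGC1B (-0.56) and YY1 (-0.12). Another 2 were higher (20%, against 28.4%), ESRRA (0.31) and MYC (0.32), so both shares were near or below those of all genes. NRF1 (-0.04), GABPA (0.09) and TFAM (-0.02) were not called on the average. For TFAM that average covers opposite changes. Of the 10, 2 (TFAM and PPRC1) were lower in at least 1 line and higher in at least 1 other, against 24% of all genes. TFAM had the highest change of the 10 in SKBR3 (0.60), and its change in AU565 minus that in SKBR3 was -0.89. PPARGC1B was lower in 94T778 (-1.17) and SKMEL28 (-0.93) and, by less, in SKBR3 (-0.30) and AU565 (-0.30). GABPB1 was lower in both breast lines (-0.47 in SKBR3 and -0.78 in AU565) but also in A375 (-0.64). The coactivator PPARGC1A was at 0 counts in every SKBR3 and AU565 library and rose in 94T778 from 3.08 and 3.03 to 7.96 and 9.58 CPM (1.52, SE 0.29). Of 6 isoforms of complex IV subunits known from muscle, lung or testis, only COX7B2 passed the filter on low counts; it was lower in AU565, from 8.08 and 8.37 to 4.38 and 3.52 CPM (-1.07, edgeR adjusted p = 0.000409).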

How the data were processed

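Total RNA was extracted from torkinib-treated (72 h) and untreated cells of 5 lines, in 2 libraries each, with a Qiagen RNeasy kit, per the labels' protocols, and sequenced. The authors deposited whole-number read counts per gene symbol with no normalization, 1 table per library. The build hg19 (GRCh37), HTSeq 0.6.1, HISAT2 2.04 and limma 3.34.9 are named per the submitters' processing notes. What each did, which annotation served and whether counting used strand are not given in the sources here. Reads aligned at more than 1 place (9.32 to 15.1% of reads) are outside the genes, so genes with pseudogene copies are uncertain, as are overlapping or antisense genes. The share of such reads was higher with torkinib in every line, with no overlap. It was 11.7 to 12.6% untreated and 14.5 to 15.1% treated in SKBR3, and 10.2 to 11.1% and 13.5 to 14.1% in AU565. The smallest rise was in 94T778, from 9.32 to 9.54% up to 9.66 to 9.78%. What part this had in the results was not tested. Counted reads were 47.8 to 62.4% of reads, and the summary rows stayed out of library sizes. With torkinib the counted share was lower in SKMEL28 (61.5 to 61.8% against 47.8 to 53.4%) and A375 (58.0 to 59.9% against 51.0 to 54.9%). In the other lines the groups overlapped.

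Counts were fitted in R 4.3.3 with edgeR 4.0.16 (TMM, filterByExpr, 10 group means in 1 model, quasi-likelihood test, Benjamini-Hochberg over 16698 genes, called at 0.05; common biological coefficient of variation 0.0547, 10 residual and 25.6 prior degrees of freedom). Levels are TMM-normalised CPM, and member shares and marker sums are of counted reads. With 2 libraries a group, p-values reflect only how these libraries vary, and that variation may be technical. Ratios of the subunit c genes were tested by exact permutation within lines, on CPM with no pseudocount. Every one of the 35 genes could be named; of the other lists, the mitochondrially encoded genes, isoforms and regulators, and otherwise the 4 genes with the smallest p on the average plus those called in all 5 lines, at most 6. The genes, lists and rules were chosen with earlier results of these data known, and SLC25A4 was named outside the rules. The test was tried on simulated counts. Alternatives were DESeq2 1.42.0, limma-voom (limma 3.58.1), other factors, filters and fits, and each library left out. Same-numbered libraries did not deviate together, so numbers were not used as pairs.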

Additional observations from a re-analysis of the deposited data

Results flagged for a closer look

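The change with torkinib differed between the 5 lines for each of the 35 genes (edgeR F test over all genes tested). The distance on the log2 scale between the line with the highest and the line with the lowest change was, in complex III, 1.42 for UQCRC1, 1.42 for UQCRC2, 1.43 for UQCRFS1, 1.17 for UQCRB, 0.83 for UQCRH, 0.91 for UQCRQ, 1.19 for UQCR10, 1.07 for UQCR11 and 1.02 for CYC1. In complex IV it was 1.03 for COX4I1, 1.22 for COX5A, 1.59 for COX5B, 1.58 for COX6A1, 1.34 for COX6B1, 1.18 for COX6C, 1.23 for COX7A2, 0.70 for COX7A2L, 1.78 for COX7B, 0.73 for COX7C and 1.26 for COX8A. In ATP synthase it was 1.07 for ATP5A1, 1.01 for ATP5B, 1.01 for ATP5C1, 2.25 for ATP5D, 0.90 for ATP5E, 0.82 for ATP5F1, 2.11 for ATP5G1, 1.05 for ATP5G2, 1.46 for ATP5G3, 0.95 for ATP5H, 0.99 for ATP5I, 1.15 for ATP5J, 1.02 for ATP5J2, 1.37 for ATP5L and 0.89 for ATP5O. ATP5D and ATP5G1 had the widest distances and COX7A2L the narrowest. Dose and culture medium differed between some lines, per the labels, and cannot be told apart from the line. Groups of 2 libraries were not tested for outlying samples.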

How the results depend on the processing

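Over the 35 genes, 5 lines and the average (210 calls), the side of the threshold stayed for 209 with DESeq2 size factors, 209 with limma-voom, 206 with DESeq2's own test, 196 with plain library totals, 201 with no filter, 201 with a filter of 5 CPM in 4 libraries, 209 without the mitochondrially encoded rows and 210 with pseudogene rows added, and for 4106 of the calls made with each library left out (73 lost, 21 gained). No called value of the 35 genes turned sign under these settings. With each line fitted alone, 167 stayed, 6 were gained and 2 lost. The replicate numbers do not pair libraries (the replicate differences of untreated and treated libraries correlated at -0.0551 to 0.0676); with the replicate block the counts were 34 lower in SKBR3, 32 in AU565, 28 in 94T778, 22 in SKMEL28 and 7 in A375, with 208 of 210 calls on the same side.

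In A375, with library totals 5 genes were lower and 7 higher, with the 5 CPM filter again 5 and 7, and with no filter 1 was higher; leaving out libraries gave 4 to 9 lower and 1 to 5 higher. The lowest of these, 4, was without A375 torkinib replicate 2. In the breast lines, 1 gene was higher in AU565 with no filter (1 to 2 without single libraries), and 0 in SKBR3 with each line fitted alone (0 to 1). The genes that differed between SKMEL28 and A375 numbered 15 (without SKMEL28 torkinib replicate 2) to 23, and between AU565 and SKBR3 3 (without SKBR3 torkinib replicate 2) to 10 (without SKBR3 untreated replicate 2), without single libraries.

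The median change of complex III in SKBR3 was -1.07 with DESeq2 size factors, -1.07 with DESeq2's test and -1.08 with the line alone (-1.16 to -1.09 without single libraries). In A375 it was -0.0062 with library totals and -0.017 with the 5 CPM filter (-0.19 without torkinib replicate 1 to -0.041 without torkinib replicate 2), in 94T778 -0.57 to -0.38 and in AU565 -1.28 to -1.13. That of complex IV in AU565 was -0.99 to -0.84, and in A375 it turned to 0.01 with library totals. That of ATP synthase in SKMEL28 was -0.29 with DESeq2 size factors and with its test, -0.31 with library totals, -0.27 with no filter, -0.24 with the 5 CPM filter and -0.26 with the line alone (-0.29 to -0.28 without single libraries). In 94T778 it was -0.59 with library totals, which also moved the median of all genes there to 0.10. In A375 it was -0.021 with library totals and -0.033 with the 5 CPM filter, and on the average -0.55 and -0.54. The ratio ATP5G1 over ATP5G3 was -0.22 to -0.15 and passed without A375 untreated replicate 1 (-0.20).

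Chosen after seeing the data, the mitochondrially encoded genes were tested without either untreated SKBR3 library: MT-ATP6 in SKBR3 turned to 0.30 without replicate 1 (-0.51 without replicate 2) and MT-CYB to -0.28 without replicate 2 (0.59 without replicate 1). The cause of these shifts was not tested. Each group held 2 libraries. UQCR10, with the lowest count (64), had the largest standard error of the 35 genes in A375.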
